A study of Mus musculus with 48 samples.

Results

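Insulin signalling and glucose transport were followed through 9 genes, picked by symbol: the insulin receptor Insr, its substrates Irs1 and Irs2, the kinase subunit Pik3r1, the kinase Akt2, the glucose transporters Slc2a4 and Slc2a1, the caveolar coat gene Cav1 and the insulin degrading protease Ide. All 9 were found among the 55450 gene identifiers of both count tables, and all 9 passed the filter on low counts in every comparison. RNA-seq had been done on primary cells driven in culture to become adipocytes, which the study describes as brown-like, from wild type (WT) C57BL/6 mice and from C57BL/6 mice carrying both Hmgn1-/- and Hmgn2-/- (DKO), which lack a pair of nucleosome binding proteins in every cell from the germline on. The cells were white preadipocytes of inguinal white adipose tissue, collected on days 0, 3, 6 and 9, and mouse embryonic fibroblasts (MEFs), collected on days 0, 4, 8 and 12. Each of the 16 groups held 3 libraries, 48 in all, and each comparison asked whether DKO cells differed from WT cells of the same day or whether a genotype changed from its own day 0. The sources used here do not say whether the 3 libraries of a group came from separate mice, so p-values measure the spread between these libraries only.

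The medium bears directly on these genes. From day 0 the cells of both genotypes received insulin at 0.5 µg/ml, dexamethasone at 5 µM, IBMX at 0.5 mM, T3 at 1 nM and rosiglitazone at 1 µM, for 4 days in preadipocytes and for 8 days in MEFs, and then insulin at 0.5 µg/ml with T3 at 1 nM for 4 days. Day 3 in preadipocytes and day 4 in MEFs therefore fell within the hormone cocktail, and day 0 preceded it. Day 8 in MEFs came at its end, whereas day 6 in preadipocytes came after it. Time in culture cannot be told apart from the medium. The days stated for preadipocytes, 4 and then 4, end before their collection on day 9, so the medium just before that is not given. On the stated media there was no library without insulin after day 0. No library came from a single Hmgn mutant.

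By way of background, insulin binds a receptor tyrosine kinase that phosphorylates the insulin receptor substrates, which recruit phosphoinositide 3-kinase through its regulatory subunit. The lipid made by that kinase activates Akt, and Akt in turn lets vesicles holding the transporter GLUT4 fuse with the cell surface, so that glucose enters. In fat cells GLUT4 carries the insulin stimulated uptake, while GLUT1, found in nearly all cells, carries uptake at rest.

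Library totals were 18962483 to 36006696 expected counts, with a median of 23978864. Hmgn2 was at most 0.33 CPM (read counts scaled to library size) in every DKO library and 32.4 to 198.4 CPM in WT, whereas Hmgn1 kept 69.66 to 114.2 CPM in DKO against 76.98 to 217.7 CPM in WT, and counts per gene cannot resolve deleted exons. The summed level of 11 adipocyte markers rose from 163 to 425 CPM on day 0 to 26000 to 27400 CPM on day 9 in WT preadipocytes, and from 941 to 1130 CPM to 17400 to 17800 CPM on day 12 in WT MEFs. In DKO cells the same sum reached 33400 to 40600 CPM and 26400 to 28000 CPM on those last days, above every WT library. On day 0 it was 237 to 892 CPM in DKO preadipocytes, which overlapped WT. In DKO MEFs it was 1530 to 2160 CPM on day 0, already above every WT library of that day. A sum of 7 macrophage and leukocyte markers, all 7 of them detected and led by Lyz2, was lower in DKO cells late in culture. It was 4830 to 8180 CPM in WT and 1800 to 3750 CPM in DKO preadipocytes on day 6. On day 12 of MEFs it was 4020 to 4070 CPM and 2540 to 2910 CPM. In preadipocytes this sum also rose over time in both genotypes. On day 0 it had been 124 to 443 CPM in WT and 36.6 to 309 CPM in DKO, with overlap. Before induction the cells carried the 7 markers used for preadipocytes and fibroblasts, at a sum of 2210 to 2990 CPM in preadipocytes and 2370 to 2870 CPM in MEFs, and MEFs then also held 5780 to 8470 CPM of the macrophage and leukocyte sum. In bulk RNA, fewer cells of a type and less RNA per cell cannot be told apart, and the part these shifts in marker levels have in the values of the 9 genes was not tested.

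Levels are given as CPM scaled by TMM over the 24 libraries of a cell type, as mean ± SD with n = 3, and levels of different genes are compared only per kilobase of exon. In WT preadipocytes on day 0 the order per kilobase ran from Cav1 at 69.68 CPM and Slc2a1 at 51.55 CPM, through Akt2 at 16.16, Pik3r1 at 11.51 and Ide at 11.07, to Insr at 4.442, Irs1 at 4.427, Irs2 at 1.827 and Slc2a4 at 0.1177. Libraries of neighbours overlapped among Akt2, Pik3r1 and Ide and between Insr and Irs1, and stood apart elsewhere in that order. By day 9 Slc2a4 had moved from last to second place at 59.14 CPM per kilobase, behind Cav1 at 272.2, and Irs1 was last at 4.543. In WT MEFs on day 12 Cav1 led at 354.4 CPM per kilobase, followed by Pik3r1 at 43.22, Slc2a4 at 35.63 and Akt2 at 34.05.

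Insr (chr8:3122061-3279617, minus strand, mm10), the receptor itself, rose during differentiation in both cell types. In WT preadipocytes it went from 61.06 ± 2.6 CPM on day 0 to 181.7 ± 18.4 CPM on day 6, a log2 change of 1.60 ± 0.10 (SE), with an adjusted p of 5.13e-08 from the quasi-likelihood test of edgeR, adjusted after Benjamini and Hochberg over all genes, as for every adjusted p given here. In WT MEFs it reached 199.4 ± 4.13 CPM on day 12 from 91.84 ± 3.11 CPM, a log2 change of 1.04 ± 0.12 (adjusted p = 4.28e-05). On day 3 the log2 change from day 0 was 0.77 ± 0.12 in DKO preadipocytes, which was called, and 0.51 ± 0.10 in WT (adjusted p = 0.00138), below the fold threshold. Between genotypes the difference was small: 195.6, 183.1 and 247.9 CPM in DKO against 145.0, 148.7 and 173.5 CPM in WT preadipocytes on day 9. The ranges did not overlap, but the log2 difference of 0.39 ± 0.13 did not pass the test (adjusted p = 0.115). In MEFs on day 12 the log2 difference of 0.32 ± 0.05 had an adjusted p of 5.97e-05 and was below the fold threshold of 1.5 that a call also required.

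The substrates Irs1 and Irs2, docking proteins phosphorylated by the receptor, moved in opposite directions as differentiation began. Both genes lie on the minus strand, Irs1 at chr1:82233101-82291416 and Irs2 at chr8:10984681-11008458 (mm10). The 250 bases before their RefSeq start sites are printed because the pair moved apart. Each is read 5′ to 3′ on the gene's own strand in build GRCm38.p6, with matches on either strand to the GC box GGGCGG, the E-box CACGTG, the CCAAT box CCAAT and the cyclic AMP response element TGACGTCA in capitals, none of them overlapping.
Irs1, chr1:82291440-82291689: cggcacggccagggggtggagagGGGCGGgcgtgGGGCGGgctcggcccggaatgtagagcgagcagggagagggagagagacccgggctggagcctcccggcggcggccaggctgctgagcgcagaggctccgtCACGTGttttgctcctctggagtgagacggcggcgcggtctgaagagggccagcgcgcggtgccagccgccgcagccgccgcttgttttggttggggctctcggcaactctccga
Irs2, chr8:11008930-11009179: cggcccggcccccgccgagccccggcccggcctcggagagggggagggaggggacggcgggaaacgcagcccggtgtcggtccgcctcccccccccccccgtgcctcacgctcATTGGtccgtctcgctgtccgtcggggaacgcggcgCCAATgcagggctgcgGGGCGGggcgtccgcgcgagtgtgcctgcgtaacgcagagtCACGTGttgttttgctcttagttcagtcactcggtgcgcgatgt
The Irs1 window held GC boxes that begin 227 and 216 bases before the start and an E-box at 115, while the Irs2 window held CCAAT boxes at 137 and 101, a GC box at 85 and an E-box at 44. Neither window held the 8 letters of the cyclic AMP response element, which occur in 1.55% of 32851 mouse promoter windows of that length. The E-box was found in 6.02% of them, the GC box in 32.7% and the CCAAT box in 33.8%, and a match of letters is no evidence of binding.

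Irs2 rose early and stayed high. In WT preadipocytes it was 10.14, 9.625 and 14.89 CPM on day 0, and 42.67, 62.67 and 71.18 CPM on day 3, with no overlap. That was a log2 change of 2.36 ± 0.20 (adjusted p = 1.08e-05), and the peak of 70.33 ± 2.45 CPM came on day 6. In WT MEFs Irs2 went from 25.89 ± 1.91 CPM to 87.29 ± 20.8 CPM on day 4 (log2 1.75 ± 0.16, adjusted p = 8.2e-06) and was 69.17 ± 1.81 CPM on day 12. DKO cells rose as well, from 16.57 ± 6.12 to 81.72 ± 13.9 CPM over the first 3 days in preadipocytes.

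Irs1, by contrast, fell during the cocktail. In WT preadipocytes it was 33.66, 44.73 and 43.04 CPM on day 0 and 28.17, 22.87 and 25.05 CPM on day 3, all 3 below the day 0 libraries, and the log2 change was -0.67 ± 0.12 (adjusted p = 0.000943). It was back at 45.58 ± 1.55 CPM on day 6, where its log2 difference from day 0 was 0.20 ± 0.12. MEFs began with a higher level, 174.2 ± 10.1 CPM in WT, and did not return to it: the log2 change was -0.87 ± 0.10 on day 4, -0.63 ± 0.10 on day 8 and -0.71 ± 0.10 on day 12. The corresponding DKO changes were -0.92 ± 0.14, -0.80 ± 0.14 and -0.72 ± 0.14, and each of these 6 was called. The call was lost in WT on day 8 without day 0 replicate 2 (-0.575) or day 8 replicate 2 (-0.494), in WT on day 12 without day 0 replicate 2 (-0.58) and in DKO on day 12 without day 0 replicate 1 (-0.523), each below the fold threshold.

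The balance of the pair was therefore read as the ratio of Irs1 to Irs2 per kilobase. In WT preadipocytes it went from 2.45 on day 0 to 0.304 on day 3 and was 0.601 on day 9, and in WT MEFs it went from 4.65 to 0.769 on day 4 and was 1.12 on day 12. Between genotypes the ratio was higher in DKO preadipocytes on day 6 (0.525 against 0.448 in WT) and day 9 (0.718 against 0.601) and lower in DKO MEFs on day 8 (0.966 against 1.25) and day 12 (0.914 against 1.12). In each of these 4 cases the 3 DKO libraries stood apart from the 3 WT libraries, which gives the smallest p that an exact two-sided permutation test of 3 against 3 allows, 0.1. Adjusted over 8 such ratios it was 0.2, so this test cannot place such differences past 0.05 with 3 libraries a group.

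**Figure D1:**
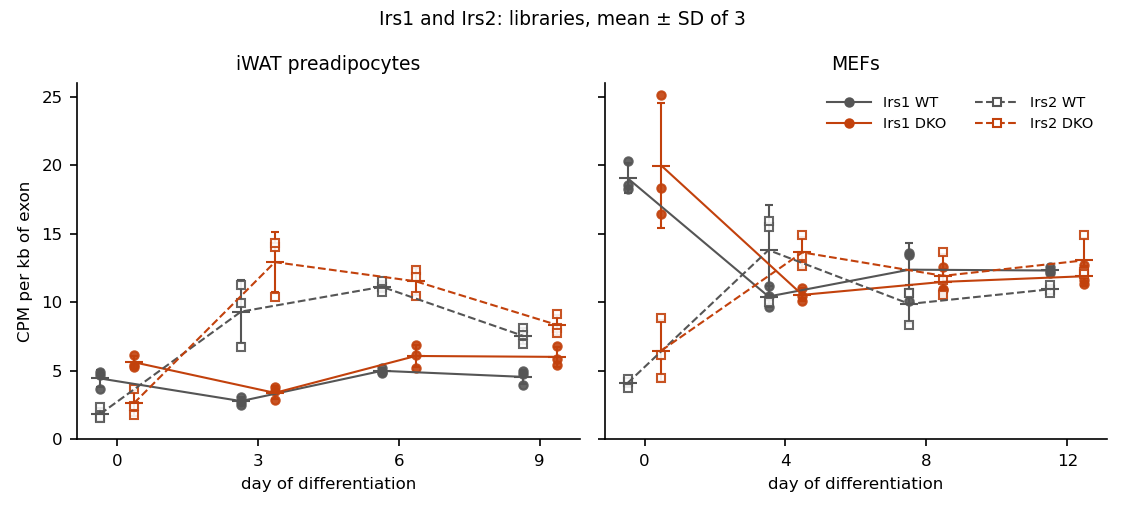
Levels of Irs1 (filled circles, solid lines) and Irs2 (open squares, dashed lines) per kilobase of exon (vertical axis, CPM per kb) by day of differentiation (horizontal axis) in WT (grey) and DKO (orange), where each symbol is a library and bars are mean ± SD of 3. In WT preadipocytes Irs2 climbs from 1.827 to 9.306 CPM per kb between days 0 and 3 while Irs1 falls from 4.427 to 2.774.

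Downstream of the substrates, Pik3r1 (chr13:101680563-101768217, minus strand) encodes the regulatory subunits of phosphoinositide 3-kinase and Akt2 (chr7:27591552-27640826, plus strand) the Akt isoform most tied to glucose uptake in fat. Pik3r1 rose in WT preadipocytes from 116.0 ± 37.2 CPM on day 0 to 387.7 ± 30.3 CPM on day 6 (log2 1.77 ± 0.28, adjusted p = 0.000241). In WT MEFs it was 237.9 ± 46.8 CPM on day 0 and 455.2 ± 144.0 CPM on day 8, when its libraries ran from 289.6 to 544.9 CPM. The change there was 0.92 ± 0.29 on the log2 scale with an adjusted p of 0.0211, and the call was lost without the filter and without WT day 0 replicate 2 (0.781), day 8 replicate 1 (0.779) or day 8 replicate 3 (0.798). Gm36638 overlaps Pik3r1 on the same strand, so reads could be split between them.

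Pik3r1 differed between genotypes late in preadipocytes. On day 9 it was 428.1, 405.3 and 482.3 CPM in DKO and 299.3, 280.1 and 314.5 CPM in WT, with no overlap. The log2 difference of 0.52 ± 0.09 had an adjusted p of 0.0424 but lay below the fold threshold. In MEFs on day 12 the groups were close, 454.4 ± 8.03 CPM in DKO and 435.6 ± 4.21 CPM in WT, with a log2 difference of 0.04 ± 0.04 (adjusted p = 0.496).

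Akt2 was 104.4, 120.1 and 121.2 CPM in WT preadipocytes on day 0 and 236.5, 228.5 and 258.9 CPM on day 9, a log2 change of 1.06 ± 0.08 (adjusted p = 3.75e-07). In DKO preadipocytes it had reached 315.8, 341.0 and 330.9 CPM by day 6, when WT libraries were at 187.8, 226.3 and 209.0 CPM. The ranges were apart, and Akt2 was called with a log2 difference of 0.63 ± 0.09 (adjusted p = 0.00474). That value is close to the fold threshold of 0.585 on the log2 scale, and 2 of 13 alternative settings, which gave 0.532 at the lowest, took it below. On day 9 the difference was 0.42 ± 0.10 and did not pass (adjusted p = 0.071). In MEFs on day 12 it was 0.28 ± 0.04 (adjusted p = 4.41e-05), again below the fold threshold, with 299.0 ± 6.23 CPM in DKO and 242.8 ± 1.6 CPM in WT. Set against the adipocyte marker sum, an added description chosen after the values were seen, Akt2 came to 0.905 to 0.974% of it in WT and 1.0 to 1.14% in DKO preadipocytes on day 6, but to 1.37 to 1.39% in WT and 1.09 to 1.11% in DKO MEFs on day 12.

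**Figure D2:**
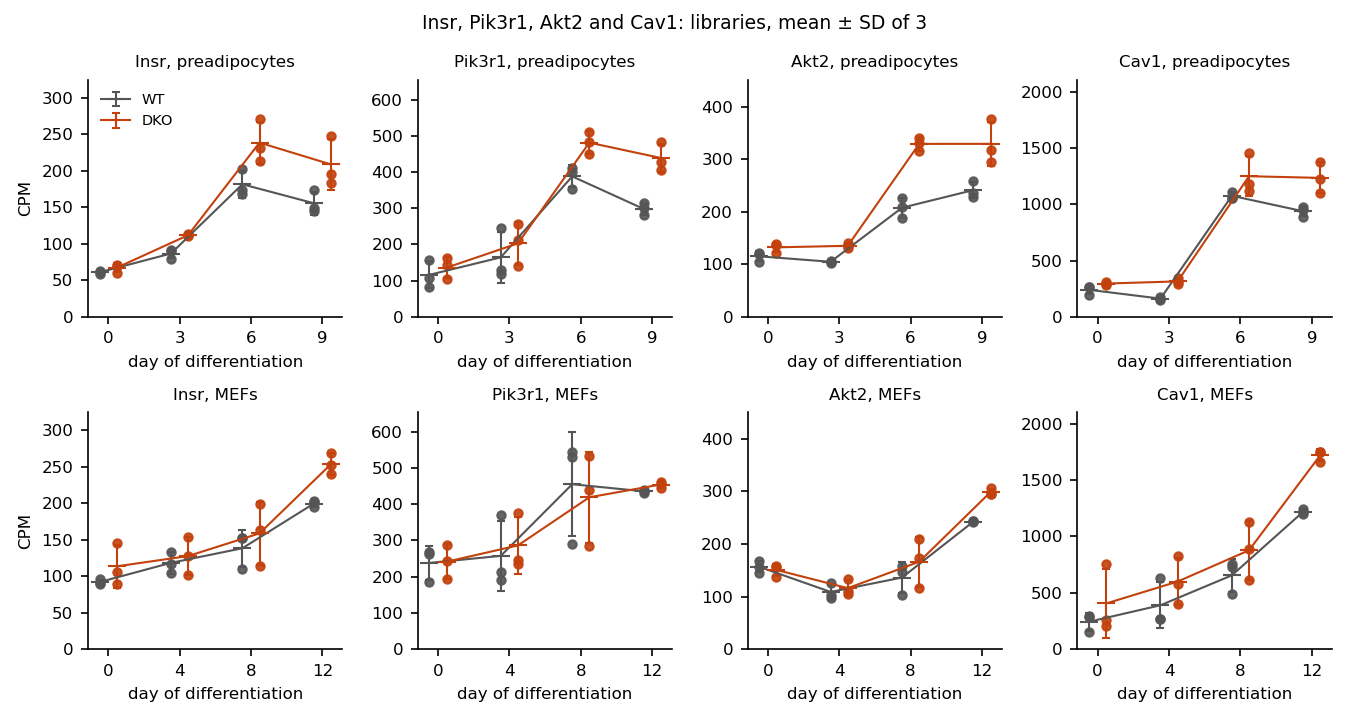
Levels of Insr, Pik3r1, Akt2 and Cav1 (vertical axis, CPM) by day of differentiation (horizontal axis) in preadipocytes (top) and MEFs (bottom), WT in grey and DKO in orange, where each point is a library and bars are mean ± SD of 3. On day 6 the 3 DKO preadipocyte libraries sit at 315.8 to 341.0 CPM for Akt2, above the WT libraries at 187.8 to 226.3 CPM, and the day 0 bar of Cav1 in DKO MEFs is drawn out by 1 library at 754.7 CPM.

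Slc2a4 (chr11:69942539-69948188, minus strand) encodes GLUT4 and had the largest change of the 9 genes between day 0 and the last day in both cell types and both genotypes. Before induction it was at 0.3272, 0.4355 and 0.4653 CPM in WT preadipocytes and, at its lowest, at 3 counts in 1 WT library of MEFs, so folds from day 0 rest on few counts. On day 9 the same cells held 195.9, 197.4 and 223.8 CPM, a log2 change of 8.96 ± 0.39 (adjusted p = 1.52e-08). In DKO preadipocytes the change over the same days was 9.55 ± 0.35, and over 12 days in MEFs it was 8.41 ± 1.00 in WT and 8.92 ± 1.01 in DKO.

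Slc2a4 also differed between genotypes on some days. On day 6 it was 109.2, 154.5 and 126.0 CPM in WT and 232.5, 254.6 and 313.8 CPM in DKO preadipocytes. The groups stood well apart, and the log2 difference was 1.01 ± 0.15 (adjusted p = 0.0058). By day 9 DKO was still above WT in each library, at 275.9, 270.8 and 359.4 CPM, but the difference of 0.52 ± 0.12 did not pass (adjusted p = 0.0645), and without DKO replicate 2 it was called at 0.598. Already on day 3, at far lower levels, DKO held 2.965, 5.867 and 6.433 CPM and WT 0.529, 2.479 and 1.712 CPM. That log2 difference of 1.69 ± 0.56 had an adjusted p of 0.291.

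In MEFs Slc2a4 differed between genotypes on day 12, when WT was at 127.6, 122.4 and 121.8 CPM and DKO at 220.0, 227.3 and 221.0 CPM. The libraries of a group lay close together, and the log2 difference was 0.82 ± 0.04 (adjusted p = 7.39e-10), a call that was lost in 1 fit over all 24 MEF libraries (adjusted p = 0.57). The same gene varied widely within a genotype on day 8, where WT was at 17.6, 1.794 and 16.39 CPM and DKO at 45.15, 30.76 and 3.772 CPM. Those groups overlapped, and the log2 difference of 1.13 ± 1.05 had an adjusted p of 0.81. Replicates of MEFs were tighter on day 12 in general, with a biological coefficient of variation of 0.0562 against 0.232, 0.216 and 0.242 on days 0, 4 and 8, so a given fold is more easily called there.

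The adipocyte markers rose with Slc2a4 and were higher in DKO cells too. Slc2a4 came to 0.531 to 0.618% of the adipocyte marker sum in WT preadipocytes on day 6 and to 0.747 to 1.03% in DKO, still with no overlap. On day 9 the ranges overlapped, at 0.736 to 0.817% and 0.802 to 0.886%. In MEFs on day 12 they were 0.689 to 0.719% in WT and 0.812 to 0.836% in DKO. Across 24 preadipocyte libraries the 3 genes whose log2 level was most like that of Slc2a4, of 16034 searched, were Plin5, a lipid droplet coat protein (Pearson r = 0.998), Acadm, an enzyme of fatty acid oxidation (r = 0.998), and Mut, an enzyme of propionate breakdown (r = 0.997). Over 24 MEF libraries their r with Slc2a4 was 0.981, 0.995 and 0.969, and all these libraries share the course of differentiation.

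Slc2a1 (chr4:119108711-119137983, plus strand, 14.83 Mb from Hmgn2), which encodes GLUT1, went the other way in preadipocytes. In WT it fell from 180.7 ± 9.51 CPM on day 0 to 101.7 ± 7.44 CPM on day 6 and 85.12 ± 9.16 CPM on day 9, when its log2 change was -1.09 ± 0.12 (adjusted p = 7.58e-06). In DKO it went from 170.8 ± 15.4 to 75.11 ± 5.53 CPM, with a log2 change of -1.20 ± 0.10. Its window of 250 bases is shown for comparison with those of the substrates, since it too carries GC boxes, at 45 and 20 bases before the start, but neither of the other motifs seen there.
Slc2a1, chr4:119108495-119108744: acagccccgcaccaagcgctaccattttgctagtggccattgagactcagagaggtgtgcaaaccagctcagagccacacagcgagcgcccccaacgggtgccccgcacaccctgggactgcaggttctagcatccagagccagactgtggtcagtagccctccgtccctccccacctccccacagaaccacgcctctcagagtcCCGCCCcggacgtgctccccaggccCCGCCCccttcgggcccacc

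MEFs did not share that steady fall. In WT MEFs Slc2a1 was 66.96 ± 10.5 CPM on day 0, 136.8 ± 46.4 CPM on day 4 and 61.67 ± 2.37 CPM on day 12. The rise to day 4 was called (log2 1.03 ± 0.33, adjusted p = 0.0236), though not without the filter nor without day 0 replicate 2 or 3 or day 4 replicate 2 or 3 (0.811 to 1.08), while DKO MEFs, at 108.9 ± 48.8 CPM on day 0 and 112.7 ± 22.0 CPM on day 4, gave no call, although the change of the genotype difference to day 4 did not pass either. On day 8 the WT library with the lowest Slc2a4 had the highest Slc2a1, 131.6 CPM against 62.07 and 60.44 CPM, and the same held in DKO, 133.2 CPM against 68.12 and 80.62 CPM. Both libraries were also the lowest of their group in Insr, Pik3r1, Akt2 and Cav1. So they were in the adipocyte marker sum, at 3830 CPM in WT (median 9320) and 4400 CPM in DKO (median 12600). Any link between the transporters beyond this was not tested. On day 12 DKO MEFs were above WT MEFs at 74.19, 95.84 and 75.7 CPM against 63.55, 59.02 and 62.44 CPM, a log2 difference of 0.39 ± 0.10 (adjusted p = 0.0159) that lay below the fold threshold.

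For these transporters only RNA was measured here, not protein or glucose uptake. The balance of their RNA can be read from the ratio of Slc2a4 to Slc2a1 per kilobase. In WT preadipocytes it was 0.00238 on day 0, 0.00815 on day 3, 1.28 on day 6 and 2.44 on day 9, so Slc2a4 passed Slc2a1 between days 3 and 6. In DKO preadipocytes it was 0.00242, 0.035, 2.7 and 4.03. In MEFs the ratio was still under 1 on day 8, at the end of their longer cocktail, with 0.103 in WT and 0.195 in DKO. It reached 2.03 and 2.76 on day 12. DKO exceeded WT in all 3 libraries on days 3, 6 and 9 of preadipocytes and day 12 of MEFs, by 2.10, 1.08, 0.72 and 0.45 on the log2 scale, with an exact two-sided permutation p of 0.1 each, the smallest that 3 against 3 allows, and 0.2 after adjustment over 8 days. Over 24 libraries the log2 levels of the transporters had a Pearson r of -0.938 in preadipocytes and -0.403 in MEFs. In MEFs Slc2a1 was not called lower on day 12. Its log2 change from day 0 was -0.19 in WT (adjusted p = 0.668) and -0.39 in DKO (adjusted p = 0.391).

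**Figure D3:**
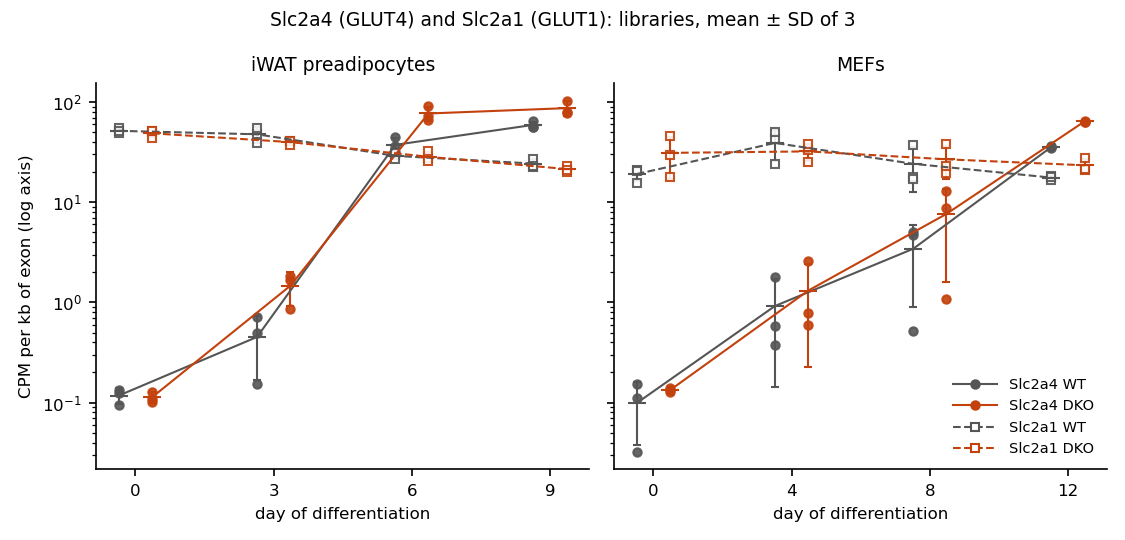
Levels of Slc2a4 (filled circles, solid lines) and Slc2a1 (open squares, dashed lines) per kilobase of exon (vertical axis, CPM per kb, log scale) by day of differentiation (horizontal axis) in WT (grey) and DKO (orange), where each symbol is a library and bars are mean ± SD of 3. In WT preadipocytes Slc2a4 climbs from 0.1177 to 59.14 CPM per kb while Slc2a1 falls from 51.55 to 24.28, and the lines cross between days 3 and 6, in MEFs between days 8 and 12.

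Cav1 (chr6:17306335-17341452, plus strand) encodes caveolin 1, the coat protein of caveolae, the membrane pits of fat cells in which insulin receptors are found. It had the highest level per kilobase in every group but WT preadipocytes on day 3, where Slc2a1 stood at 47.61 CPM per kilobase and Cav1 at 46.95, with overlapping libraries. It rose in WT preadipocytes from 240.0 ± 37.3 CPM on day 0 to 1075 ± 33.1 CPM on day 6 (log2 2.19 ± 0.11, adjusted p = 1.56e-08). Before that it passed through a low point on day 3 in WT cells, with 162.1, 148.4 and 174.6 CPM. DKO cells held 310.8, 342.2 and 291.3 CPM on that day, near the 295.6 ± 14.7 CPM of their day 0. The log2 difference of 0.97 ± 0.10 was called (adjusted p = 0.0187), but leaving out any 1 of the 6 libraries ended the call, with an adjusted p of up to 0.129. On day 3 the adipocyte marker sum was 701 to 2710 CPM in WT and 3550 to 4960 CPM in DKO, and Cav1 came to 5.48 to 23.1% of it in WT and 6.73 to 8.75% in DKO. The change of the genotype difference from day 0 to day 3 was 0.64 ± 0.17 on the log2 scale and did not pass (adjusted p = 0.433).

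On later days Cav1 was somewhat higher in DKO cells without a call. In preadipocytes the log2 difference was 0.18 ± 0.12 on day 6 and 0.36 ± 0.10 on day 9 (adjusted p = 0.083). In MEFs it was 0.47 ± 0.04 on day 12 (adjusted p = 4.37e-07), below the fold threshold, with 1246, 1217 and 1199 CPM in WT and 1753, 1665 and 1753 CPM in DKO. As a share of the adipocyte marker sum, Cav1 was instead lower in DKO preadipocytes on day 6, at 3.65 to 4.27% against 4.45 to 5.14%. The same held on day 12 of MEFs, at 5.95 to 6.63% against 6.78 to 7.02% in WT. On day 9 of preadipocytes and days 4 and 8 of MEFs the shares overlapped. On day 0 of MEFs 1 DKO library held 754.7 CPM while the other two held 200.8 and 260.5 CPM. Without that library, replicate 3, the log2 difference of 0.74 ± 0.54 became -0.07. The gene most like Cav1 over 24 preadipocyte libraries was its neighbour in caveolae, Cav2 (r = 0.984, and 0.914 over 24 MEF libraries).

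Ide (chr19:37268743-37337852, minus strand) encodes the zinc metalloprotease that degrades insulin. Over its 12 WT preadipocyte libraries it ran from 61.9 to 93.67 CPM with a median of 81.19, and over the 12 DKO libraries from 96.2 to 253.0 CPM with a median of 178.4. In MEFs the 12 WT libraries ran from 74.57 to 166.5 CPM with a median of 149.3, and the 12 DKO libraries from 167.7 to 249.4 CPM with a median of 204.2. Every DKO library was thus above every WT library of its cell type, whatever the day. Among 16035 genes that passed the filter in both tables, 14 had that property in preadipocytes and 20 in MEFs, and Ide was 1 of 6 with it in both, a count made after the values were seen.

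Day by day, Ide was called on days 6 and 9 in preadipocytes and on day 12 in MEFs. On day 6 WT was at 90.49, 90.67 and 93.67 CPM and DKO at 188.5, 253.0 and 250.2 CPM. Each DKO library was above 2 times the WT mean, and the log2 difference was 1.29 ± 0.12 (adjusted p = 0.00116). On day 9 it was 1.28 ± 0.09 (adjusted p = 0.0012), and on day 12 of MEFs 0.63 ± 0.04 (adjusted p = 1.07e-08). Scaling to library size alone put that last value at 0.576, just below the fold threshold. At the other days of preadipocytes the difference was 0.75 ± 0.17 (day 0, adjusted p = 0.322) and 0.93 ± 0.21 (day 3, adjusted p = 0.16). In MEFs it was 0.75 ± 0.19 on day 0, 0.32 ± 0.12 on day 4 and 0.51 ± 0.07 on day 8, with adjusted p of 0.428, 0.821 and 0.177.

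Over time Ide was called in 1 of the 12 comparisons with day 0, DKO preadipocytes on day 6 (log2 0.72 ± 0.21, adjusted p = 0.0113), and that call was lost with library size scaling (0.483) and limma-voom (0.58). Against the adipocyte marker sum it was 0.363 to 0.44% in WT and 0.683 to 0.819% in DKO preadipocytes on day 6, and 0.286 to 0.313% and 0.515 to 0.614% on day 9, with no overlap on either day. In MEFs on day 12 the ranges overlapped, at 0.869 to 0.894% and 0.886 to 0.943%.

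A ribosomal protein pseudogene, Rpl10-ps6, lies within Ide on the same strand, so reads could be split between them. Genes beside Ide on chromosome 19 were looked at after its values were seen. Fgfbp3 (chr19:36917550-36919615, minus strand) encodes a carrier of fibroblast growth factors. It had log2 differences of 0.92, 0.37, 0.92 and 1.16 on the 4 days of preadipocytes and 1.05, -0.16, 0.51 and 0.37 on those of MEFs. Fgfbp3 was called on day 6 of preadipocytes (adjusted p = 0.0394). Between Fgfbp3 and Ide lie Btaf1, Cpeb3 and March5, whose differences were 0.23, 0.11 and -0.07 on day 0 and 0.52, 0.55 and 0.41 on day 9 of preadipocytes. In MEFs they were 0.47, -0.17 and 0.01 on day 0 and 0.28, 0.38 and 0.41 on day 12. On day 6 of preadipocytes Btaf1, Cpeb3 and March5 were at 0.46, 0.44 and 0.42. Genes on the other side of Ide went both ways. On day 6 Kif11, a mitotic motor, Hhex and Myof were at -1.36, -1.60 and -0.89. Exoc6, Ffar4 and Rbp4 were at 0.47, 1.34 and 0.85. All of these day 6 values had an adjusted p under 0.05. In MEFs on day 12 Kif11, Hhex and Myof were at -0.36, -0.19 and -0.15, and Exoc6, Ffar4 and Rbp4 at 0.12, 1.46 and 0.55. Kif11 was at -0.69 on day 9 of preadipocytes. A copy number gain that takes in Ide and Fgfbp3 is known to segregate among C57BL/6J mice. The labels do not give the substrain or the parents of the WT and DKO mice, and DNA copy number was not tested.

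**Figure D4:**
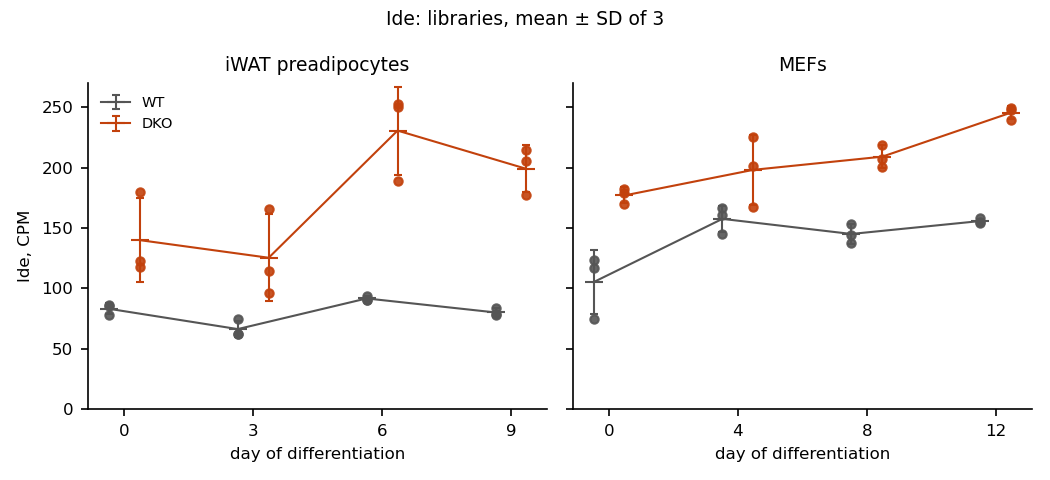
Level of Ide (vertical axis, CPM) by day of differentiation (horizontal axis) in preadipocytes and MEFs, WT in grey and DKO in orange, where each point is a library and bars are mean ± SD of 3. The 12 DKO libraries of preadipocytes (96.2 to 253.0 CPM) all lie above the 12 WT libraries (61.9 to 93.67 CPM), and those of MEFs (167.7 to 249.4 CPM) above theirs (74.57 to 166.5 CPM).

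Taking the 9 genes as a set, all calls between genotypes were higher in DKO, where a call means an adjusted p under 0.05 and a fold of at least 1.5. In preadipocytes 0 of 9 were called on day 0, when 0.218% of all tested genes were, and 1 of 9 on day 3 (Cav1) beside 0.337%. On day 6 there were 3 (Ide, Slc2a4 and Akt2) beside 11.6%, and on day 9 there was 1 (Ide) beside 1.24%. On adjusted p alone day 9 had 2 of 9, with Pik3r1, against 2.11% of all genes. In MEFs 0 of 9 were called on day 0 beside 0.102%, 0 on day 4 beside 0.0905%, 0 on day 8 beside 0.0595% and 2 on day 12 (Slc2a4 and Ide) beside 7.98%. On adjusted p alone day 12 had 7 of 9, against 33.0% of all genes. Over the 13 alternative settings these adjusted p reached 0.364 for Insr, 0.533 for Irs2, 0.588 for Slc2a1 and 0.373 for Akt2. They reached 0.592 for Cav1 and 0.57 for Slc2a4, but only 0.0107 for Ide. The counts at an unadjusted p under 0.05 were 3, 5, 6 and 7 over the 4 days of preadipocytes and 2, 1, 1 and 7 over those of MEFs. Among all tested genes they were 1188 of 15123, 1838 of 15119, 5468 of 14694 and 3984 of 14700 in preadipocytes. For MEFs they were 1454 of 15671, 915 of 15475, 1295 of 15117 and 6480 of 15319.

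Many members without a call also had a DKO mean above the WT mean. The estimate was positive for 7, 8, 8 and 8 of 9 members on the 4 days of preadipocytes and for 8, 7, 7 and 8 on those of MEFs. The median log2 difference of the members was 0.227, 0.375, 0.275 and 0.390 on the 4 days of preadipocytes. On those of MEFs it was 0.429, 0.103, 0.251 and 0.322, highest on day 0. The median of all tested genes lay between -0.013 and 0.012 on these days. Slc2a1 was the exception in preadipocytes, with estimates of -0.25, -0.07 and -0.21 on days 3, 6 and 9, none of which passed. Irs2 showed no difference that passed there either, with 0.01 ± 0.08 on day 6 and 0.11 ± 0.09 on day 9.

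**Figure D5:**
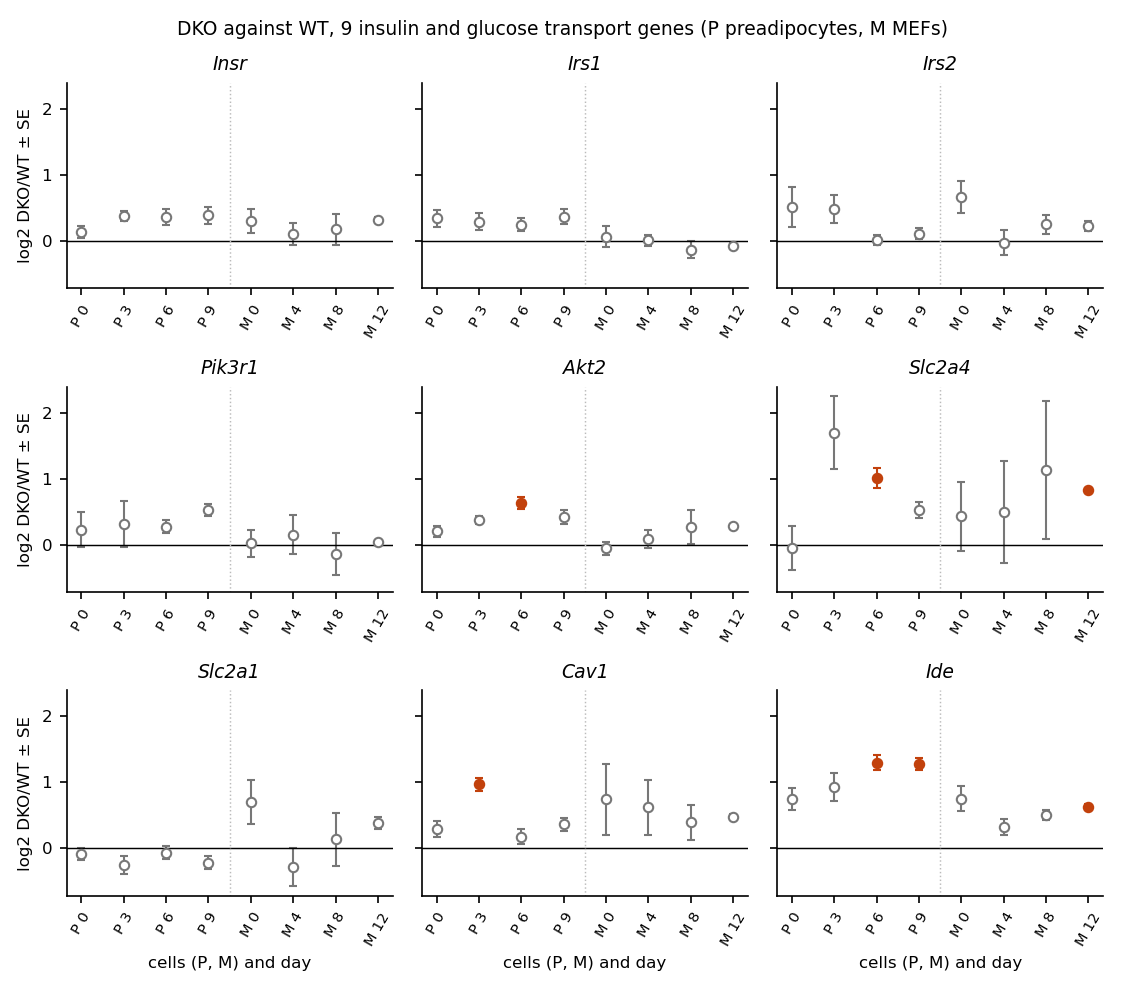
Log2 of DKO over WT (vertical axis, point and SE bar) for each of the 9 genes (1 panel each) on each day (horizontal axis, P for preadipocytes and M for MEFs), with called values filled in orange. Ide lies above 0 on all 8 days (0.32 to 1.29), and 7 values are filled, of Ide, Slc2a4, Akt2 and Cav1.

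Whether the genotype difference itself changed after day 0 was tested with an interaction term. None of the 9 members was called for any day. The shares of all genes called were 0.0125% for day 3, 3.49% for day 6 and 0.0555% for day 9 of preadipocytes, and 0.00% for day 4, 0.00% for day 8 and 1.42% for day 12 of MEFs. At an unadjusted p under 0.05 there were 2, 3, 1, 0, 0 and 1 members, and 996, 3582, 2556, 1185, 859 and 2542 of all genes. Without DKO day 0 replicate 3, Ide was called for day 6 at 0.739. The 3 on day 6 were Akt2 at 0.46 ± 0.13 (adjusted p = 0.0645), Slc2a4 at 1.08 ± 0.37 (adjusted p = 0.119) and Ide at 0.58 ± 0.22 (adjusted p = 0.152). For day 12 of MEFs it was Akt2 at 0.37 ± 0.10 (adjusted p = 0.0771).

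Over time the members were called more often than between genotypes, as were genes at large. In WT preadipocytes 3, 7 and 7 of 9 differed from day 0 on days 3, 6 and 9, when 24.7%, 53.1% and 52.7% of all tested genes did. In DKO preadipocytes it was 5, 8 and 7 of 9, beside 27.0%, 57.4% and 55.6%. In WT MEFs it was 4, 5 and 6 of 9 on days 4, 8 and 12, beside 33.2%, 29.6% and 26.3%, and in DKO MEFs 3, 4 and 7, beside 26.1%, 27.1% and 25.6%. Slc2a4 and Irs2 rose in all 12 of these comparisons, although WT MEFs without day 0 replicate 2 kept 2 of the 4 calls of day 4, with Slc2a4 and Slc2a1 lost, and 3 of the 5 of day 8. The day 4 call of Slc2a4 was also lost in MEFs of both genotypes without the filter, with limma-voom and without any 1 of the day 0 libraries. Irs1 was the member called lower on each day of MEFs and on day 3 of preadipocytes, in both genotypes, and Slc2a1 was called lower on days 6 and 9 of preadipocytes.

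The wider pathway was read from 6 gene lists that leave out the 9 members. On day 6 of preadipocytes, when 11.6% of all tested genes were called, 0 of 21 tested genes between the receptor and Akt were called between genotypes, and their median log2 difference was -0.03. Of 20 inhibitors of insulin signalling 1 was higher, Trib3, a pseudokinase that binds Akt, which went from 17.5 ± 3.1 CPM in WT to 64.8 ± 18.7 CPM in DKO (log2 1.86 ± 0.25, adjusted p = 0.00638). Enpp1, a membrane phosphodiesterase that binds the receptor, was lower, at 5.09 ± 0.213 against 8.88 ± 0.523 CPM. Of 17 effectors and targets of Akt 3 were higher: Pde3b, which breaks down cyclic AMP, Gys1, a glycogen synthase, and Acly, which makes acetyl-CoA for lipid synthesis. Of 27 genes of GLUT4 vesicle traffic the only call was Trarg1, a protein of GLUT4 vesicles, at 151 ± 15.3 against 80.1 ± 14.6 CPM.

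Among 10 tested hexose transporters and hexokinases besides Slc2a1 and Slc2a4, Hk2, which traps glucose inside the cell as its phosphate, was higher in DKO preadipocytes on day 6 at 376 ± 34.8 against 180 ± 25.8 CPM (log2 1.03 ± 0.12, adjusted p = 0.00333). None of 7 tested genes of caveolae was called on that day. In MEFs on day 12 the calls were 3 of 22 between receptor and Akt (among them Sh2b2 and Irs3), 0 of 20 inhibitors, 3 of 17 effectors (Eif4ebp1, Pde3b and Gys1), 2 of 27 traffic genes (Sort1 and Trarg1), 3 of 11 transporters and hexokinases (among them Slc2a3 and Hk2) and 1 of 8 caveolar genes (Cav2). All of those were higher in DKO, and the share called among all genes was 7.98%. No gene of the 6 lists was called on the other 6 days.

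Over differentiation the same lists changed in both directions, at shares to be read against the 52.7% of all tested genes called in WT preadipocytes on day 9. In WT preadipocytes on day 9 against day 0, 7 of 23 genes between receptor and Akt rose and 6 fell. Irs3, a substrate of rodent fat cells, rose by 4.29 on the log2 scale and Sh2b2, an adaptor of the receptor, by 3.68, while Akt1 changed by -1.30, opposite to Akt2. Of 20 inhibitors 4 rose and 8 fell, with Grb14, an adaptor that blocks the receptor kinase, at -2.30 and Trib2 at -2.47. Of 17 effectors of Akt 9 rose, led by Pde3b at 6.94, and 2 fell. In vesicle traffic 4 of 27 rose and 5 fell, and Trarg1 and Sort1, the sorting receptor of GLUT4 vesicles, rose by 8.53 and 3.46. Of 8 caveolar genes 5 rose, among them Cavin2 by 3.68 and Cav2 by 2.97, and 2 fell.

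Day 3 showed part of this course under the cocktail. Trib1 and Socs3, inhibitors induced by many stimuli, were higher than on day 0 by 1.56 and 1.10 in WT preadipocytes, Trib3 was at -2.51 and Grb14 at -1.63. Cav2 was lower by then, at -1.03, as Cav1 was at -0.57 without reaching the fold threshold. In WT MEFs on day 12, Trarg1 rose by 9.70, Cavin2 by 2.65, Sort1 by 2.27, Cav2 by 2.25 and Hk2 by 1.67 on the log2 scale.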

How the data were processed

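RNA had been sequenced as strand-specific paired-end libraries. Per the labels and the submitters' processing notes, the authors aligned reads to mm10 with STAR 2.7.0f and counted them with RSEM 1.3.0. The labels name polyA RNA and the methods a total RNA kit. The deposited values are expected counts per gene, not normalized, of which 5.49 to 7.9% were not whole, and they were rounded. The members and gene lists were chosen with earlier results of these data known. Calls came from edgeR 4.0.16 (R 4.3.3): filterByExpr, TMM scaling, robust quasi-likelihood tests, Benjamini-Hochberg adjustment over all genes, and a fold of at least 1.5. Genotypes were compared within the 6 libraries of a day, days within the 12 libraries of a genotype, and the change of the difference within the 12 libraries of day 0 and a later day. Ratios used a pseudocount of 0.5 counts, and likeness log2(CPM + 0.5). Exon lengths and overlaps came from GENCODE M21, promoters from RefSeq, which held entries for 7 of the 9 genes. In each list up to 3 called genes a direction were named. The edgeR fits, and DESeq2 and limma-voom for the genotype comparison, were tested on simulated preadipocyte counts, and the other steps were not. Alternatives were DESeq2 1.42.0, limma 3.58.1, library size scaling, no filter, no fold threshold, 1 fit over all days, a replicate block and leaving out each library. The neighbours of Ide, the separated genes and the shares of the adipocyte marker sum were added after values were seen. Samples of the same number were not paired by the labels, and only for DKO preadipocytes on day 3 against day 0 did all 3 pairs correlate above 0.1 (0.464 to 0.6). Some genes of the lists are not reported here.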

Additional observations from a re-analysis of the deposited data

How the results depend on the processing

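Counts of members called between genotypes moved as follows. DESeq2 gave 1 in place of 0 on day 0 of preadipocytes and of MEFs, 2 in place of 1 on day 3 of preadipocytes and, for the change of the difference to day 3, 1 in place of 0. A fit over all days gave 1, 3, 1 and 1 on day 0 and day 3 of preadipocytes and day 0 and day 12 of MEFs. Without a fold threshold there were 2 on day 9 of preadipocytes and 7 on day 12 of MEFs, where library size scaling and limma-voom with quantile normalization each gave 1. With the replicate number as a block, a pairing the labels do not state, 3 were called on day 3 of preadipocytes, and no other count of members moved by more than 1.5 times. Leaving out 1 library gave 0 throughout on day 3, 1 to 2 on day 9 and, for the change of the difference to day 6, 0 to 1. Over time, WT preadipocytes on day 3 had 6 called without a fold threshold. WT MEFs on day 4 had 7 without it, 2 without a filter and 2 to 5 when a library was left out, and on day 8 they had 3 to 7 (both lows without day 0 replicate 2).

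Log2 differences that changed sign were all small or from scattered libraries, and none had been called. By library size and by limma-voom, Irs2 on day 6 of preadipocytes became -0.0877 and -0.00303, Pik3r1 on day 12 of MEFs -0.0194 and -0.0532, Irs1 in WT preadipocytes on day 9 -0.117 and -0.0698, and Irs1 in DKO preadipocytes -0.121 and -0.00316 on day 6 and -0.174 and -0.0296 on day 9. Slc2a4 on day 0 of preadipocytes became 0.127 by limma-voom. With 1 library left out the ranges were -0.191 to 0.0497 for that value, -0.021 to 0.0742 for Irs2 on day 6, -0.0638 to 0.149 and -0.00179 to 0.162 for Irs1 on day 9 in WT and DKO, -0.104 to 0.00804 for Akt2 and -0.0706 to 1.07 for Cav1 on day 0 of MEFs, and -0.435 to 1.45 for Slc2a4 and -0.0158 to 0.201 for Akt2 on day 4 of MEFs. The cause was not tested. Scaling to library size alone moved the members' log2 values by medians of -0.10 to 0.01 between genotypes and -0.26 to 0.12 over time. The calls of Slc2a4 on day 6 (0.862 to 1.14) and of Ide on days 6 (1.19 to 1.41) and 9 (up to 1.35) of preadipocytes held under all 13 alternatives. Apart from leaving out libraries, no setting moved a ratio by more than its spread. Leaving out 1 library cannot shift the mean of so small a group that far, so the result of that check was fixed beforehand. It is no sign that the ratios are stable.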

Other observations

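The genes most like a member were picked by their r in preadipocytes, which by itself favours a higher r there than in MEFs. For Irs1 the likeness did not carry over to MEFs, while for Insr and Slc2a1 it did at a lower r. The genes whose log2 level was most like that of Irs1 over 24 preadipocyte libraries were Msrb1 (Pearson r = 0.892), Per3, a component of the circadian clock (r = 0.891), and Kpna6 (r = 0.886), and over the 24 MEF libraries their r with Irs1 was -0.465, 0.432 and -0.421. For Insr they were Ppm1k, a phosphatase of branched-chain amino acid breakdown (r = 0.990, and 0.801 in MEFs), Slc25a51, the mitochondrial NAD carrier (0.988 and 0.891), and Cluh (0.987 and 0.922). For Slc2a1 they were Adora2b, an adenosine receptor (0.976 and 0.738), Phc2 (0.969 and 0.760) and Ptgs2, a cyclooxygenase (0.967 and 0.711). These are descriptions over libraries that share a time course, with no test.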
